A study of Mus musculus with 6 samples.

Results

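The 44 genes described here encode ligands, receptors, extracellular antagonists, SMAD proteins and target or feedback genes of the TGF-beta, activin and BMP pathways. They were found by gene symbol, and each of the 44 was among the 24982 genes listed for every library. By role they were 14 ligands and ligand-binding proteins, 10 receptors, 7 antagonists, 8 SMADs and 5 targets. The unit was the mean read coverage per base of each gene, written to 1 decimal, so that levels of genes of unlike length can be set side by side. Of the 44 genes, 37 reached a coverage of 0.5, after normalization, in 3 libraries or more and were tested, and 7 did not pass this filter.

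RNA-seq was carried out on 6 libraries of a pair of keratinocyte lines from neonatal skin of C57BL/6 mice, to compare their gene expression profiles. The 3 KSFM-Ca2+ libraries came from cells derived and grown in a serum-free keratinocyte medium low in calcium. The 3 DKSFM libraries came from descendants of these cells that had been adapted to the defined medium DKSFM, which holds more calcium. No treatment was given to either line, and strain and tissue of origin were shared. Each line is a culture that survived a selection, and the DKSFM cells differ from their parents both in the medium and in their culture history, which cannot be told apart here. Whether each replicate was grown as its own culture is not stated, so the p-values measure the spread between these libraries, which may be technical. The coverage of all genes added up to 1601676, 1238411 and 1057750 in the KSFM-Ca2+ replicates 1 to 3, and in their DKSFM counterparts to 1174348, 1239438 and 1170675. The smallest value that could be listed was 0.1, and for genes close to it the fold change depends on the constant added before taking logarithms.

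Ligands of this family are secreted dimers that bind a complex of type I and type II receptor kinases at the cell surface. TGF-beta and activin receptors phosphorylate SMAD2 and SMAD3, and BMP receptors phosphorylate SMAD1, SMAD5 and SMAD9, after which these proteins join SMAD4 and act on genes in the nucleus. In the epidermis TGF-beta is known to restrain the division of keratinocytes, while activin, BMPs and their secreted antagonists are known for their parts in wound repair and in the formation and cycling of hair follicles.

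The labelled cell type was checked against markers. The 7 markers of basal keratinocytes summed to a normalized coverage of 19039.8, 19261 and 18949 in the KSFM-Ca2+ libraries and 44913, 40993 and 45221 in the DKSFM libraries, with *Krt14* the most abundant. The rise of this sum lay mostly in *Krt5* and *Krt14*, while *Trp63* and *Itga6* moved little (log2 fold changes of 0.13 and 0.14) and *Itgb4* fell (log2 change of -0.74, limma adjusted p = 4.80e-07). The 6 suprabasal markers summed to 29.0, 30.0 and 30.7 and to 44.6, 53.5 and 46.0, with *Ivl* the most abundant in the KSFM-Ca2+ cells and *Tgm1* in the DKSFM cells. *Ivl* itself was lower in the DKSFM cells, with means of 21.3 and 13.5. The other suprabasal markers tested, *Krt10*, *Lor*, *Dsg1a* and *Tgm1*, were higher there (log2 changes of 0.49, 3.42, 4.07 and 2.26), and *Krt1* was not tested. Of 7 fibroblast markers, 6 were listed at 0 in every library, the collagens *Col1a1*, *Col1a2* and *Col3a1* among them, and the sum, carried by *Pdgfra*, was 1.15, 0.890 and 1.30 in the KSFM-Ca2+ libraries and 2.34, 2.10 and 2.23 in the DKSFM libraries. Among 6 melanocyte markers *Dct* and *Tyr* were at 0 throughout, and the sum of 3.98, 3.94 and 4.59 against 17.3, 18.7 and 18.3 was mainly *Mitf*. The endothelial marker *Cdh5* was at 0 in all libraries, and the 4 endothelial markers summed to 2.83, 3.15 and 3.30 against 8.29, 8.30 and 7.42, mainly *Pecam1*. The 6 immune markers summed to 1.30, 1.57 and 2.0 in the KSFM-Ca2+ libraries and to 0, 0.200 and 0 in the DKSFM libraries. They were mainly *Cd74* in the KSFM-Ca2+ cells, a gene at 0 in each DKSFM library, and *Cd3e* and *Itgax* were at 0 throughout. The 3 smooth muscle markers summed to 0.840, 0.590 and 1.06 against 0.640, 0.200 and 0.420, mainly *Des* in the KSFM-Ca2+ cells and *Acta2* in the DKSFM cells. The 3 Merkel cell markers summed to 1.07, 0.790 and 0.470 against 0.850, 0.700 and 0.850, mainly *Isl1*, with *Atoh1* at 0. The basal keratinocyte markers were abundant in both lines. Of the other lists some markers were at 0. *Mitf* (means of 3.51 and 17.7), *Pecam1* (2.77 and 7.59) and *Pdgfra* (1.11 and 2.22) were higher in the DKSFM cells (limma adjusted p = 1.53e-07, 3.91e-06 and 7.47e-04). From the melanocyte and endothelial lists *Pmel* (0.593 and 0.344), *Mlana* (0.0656 and 0) and *Tek* (0.261 and 0.210) had lower means there, with overlapping libraries. *Kdr* and *Sox10* had slightly higher means, close to the rounding step. Whether other cells were present was not tested. The part of the sums that moved between the lines in the values given below was not tested.

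Among the 37 genes tested, more were higher in the DKSFM cells than lower. With limma at an adjusted p under 0.01, 20 were higher in the DKSFM cells (54.1%, where 35.6% of all 12450 genes tested were) and 9 were lower (24.3%, against 36.8%). With a change of at least 2-fold besides, 10 were higher (27.0%, against 13.3%) and 3 were lower (8.11%, against 10.5%). In 32 of the 37 the libraries of the lines did not overlap, and the share, 86.5%, was close to the 83.1% found over all genes tested. The median log2 fold change was 0.25 over the genes tested here and 0.00 over all genes. These counts are a description, since the genes were chosen with earlier results of these data known, which holds under any filter. Besides, 4 of the genes passed the filter through 1 line alone (*Tgfb2*, *Chrd* and *Id4* through the DKSFM cells and *Gdf15* through the KSFM-Ca2+ cells) and so had to differ. Where a normalized coverage of at least 0.5 was asked of every library, 6 of 32 were higher by 2-fold (18.8%, against 9.3% of all 11124 genes left) and 2 were lower (6.25%, against 8.58%). In bulk RNA a smaller number of cells of a kind and less RNA in each cell cannot be told apart.

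**Figure D1:**
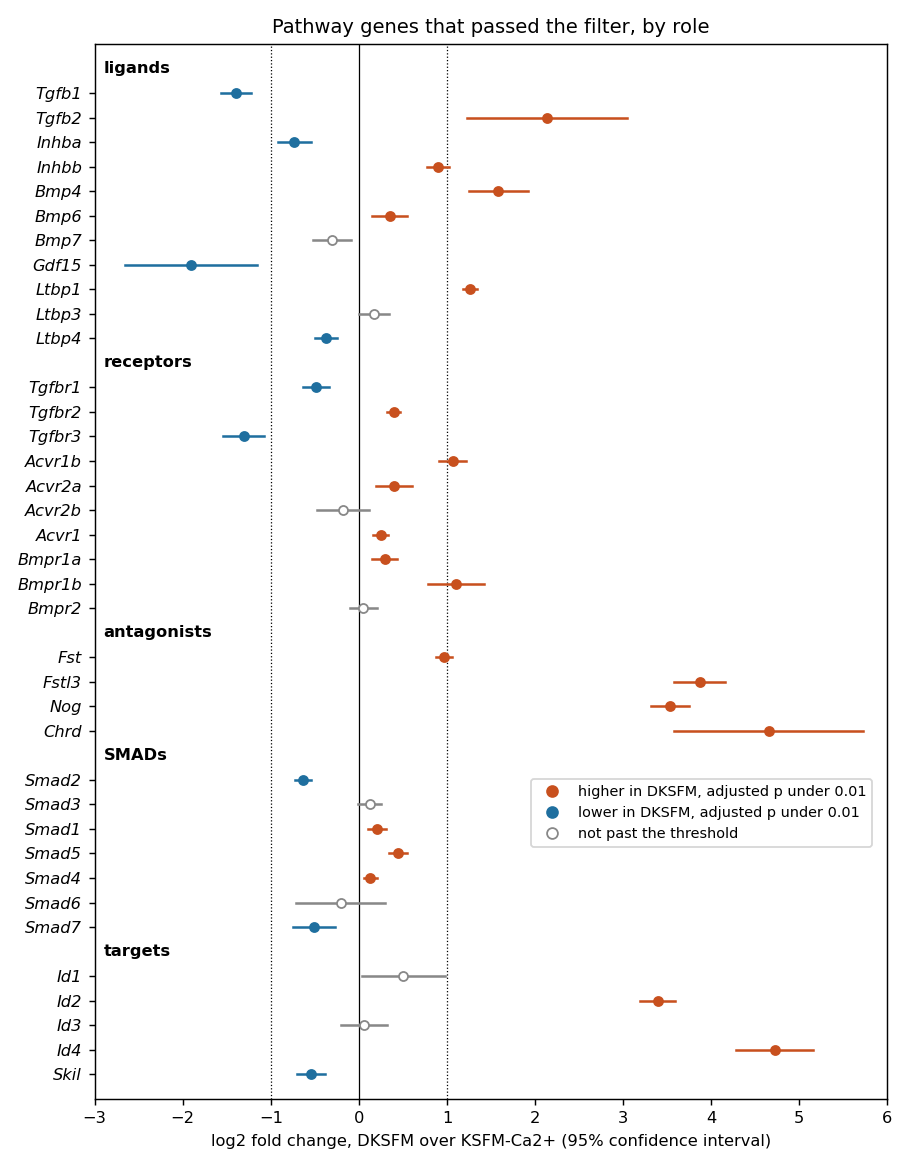
Log2 fold change (DKSFM over KSFM-Ca2+, x axis) of the 37 genes tested, listed by role, where points are limma estimates over 3 against 3 libraries, bars are 95% confidence intervals, dotted lines mark a 2-fold change, and open points did not pass an adjusted p of 0.01. The 4 antagonists tested were higher in the DKSFM cells, *Chrd* of necessity through the filter, while ligands, receptors and SMADs lay on both sides of 0.

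**Figure D2:**
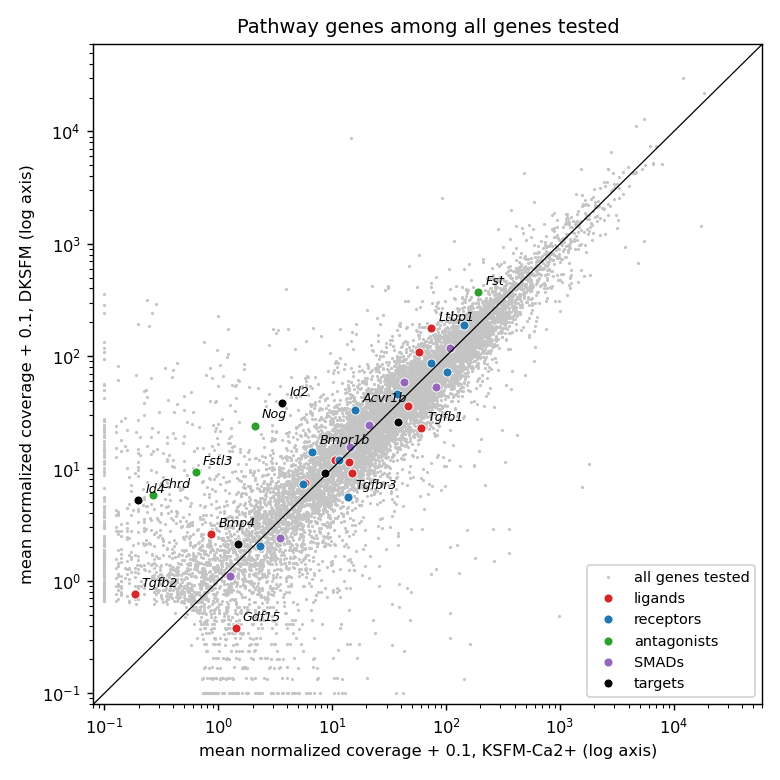
Mean normalized coverage + 0.1 in the KSFM-Ca2+ libraries (x axis) and the DKSFM libraries (y axis), both on log axes, for all 12450 genes tested (grey) and for the 37 pathway genes, coloured by role, with a line at equal coverage and names at *Fst* and the genes called with a 2-fold change. *Id4*, *Chrd*, *Fstl3*, *Nog* and *Id2* lie farthest above the line, and *Gdf15*, *Tgfb1* and *Tgfbr3* below it.

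Of the TGF-beta ligands themselves, the main one was lower in the DKSFM cells. *Tgfb1* (GRCm38, chromosome 7 from 25687002 to 25705077) stood at a normalized coverage of 59.7, 59.5 and 59.8 in the KSFM-Ca2+ replicates 1 to 3, and the DKSFM replicates stood at 23.2, 20.1 and 24.8. The KSFM-Ca2+ libraries were nearly level with each other and each stood above every DKSFM library by more than 2-fold (log2 change of -1.40 with a standard error of 0.07, limma adjusted p = 5.04e-07). The tested genes in the same 20 Mb window of chromosome 7 had a median log2 fold change of 0.57, opposite in sign to the fall of *Tgfb1*. *Tgfb2*, a second TGF-beta, was close to the rounding step. It was listed at 0.2, 0.1 and 0 in the KSFM-Ca2+ libraries against 0.5, 0.7 and 0.7 in the DKSFM libraries. At the median length of all its annotated transcripts each 0.1 stood for roughly 0.966 reads, and for a longer transcript it would stand for more. All DKSFM libraries were above all KSFM-Ca2+ libraries (log2 change of 2.13 with a standard error of 0.39, limma adjusted p = 0.00112), but the fitted size was 0.99 with a pseudocount of 0.5 and 0.61 with a pseudocount of 1. *Tgfb3* was listed at 0 in every library. *Tgfb1* therefore held 99.9 ± 0.130% of the coverage of the 3 genes in the KSFM-Ca2+ cells and 97.2 ± 0.565% in the DKSFM cells (SD, n = 3; exact two-sided permutation test, p = 0.10). With 3 libraries against 3 this is the smallest p such a test can give, and it was also the p of the other 7 shares and ratios compared below, with an adjusted value of 0.10 over the 8.

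The activin subunit genes moved apart. *Inhbb*, which encodes the activin beta B subunit, had a normalized coverage of 61.2, 60.1 and 53.1 in the KSFM-Ca2+ libraries and 108, 110.0 and 106 in the DKSFM libraries. It was higher in every DKSFM library, by slightly less than 2-fold (log2 change of 0.89 with a standard error of 0.05, limma adjusted p = 1.37e-06). *Inhba*, for the beta A subunit, was the less abundant gene of the pair on this per-base scale, at 14.2, 14.8 and 15.8 in the KSFM-Ca2+ libraries and 9.67, 8.10 and 9.11 in the DKSFM libraries. It was lower in every DKSFM library (log2 change of -0.73 with a standard error of 0.08, limma adjusted p = 4.86e-05), and less the median of the tested genes in its 20 Mb window the change was -0.42. *Inhbb* made up 79.5 ± 2.12% of the summed coverage of both genes in the KSFM-Ca2+ cells and 92.3 ± 0.715% in the DKSFM cells (SD, n = 3; exact two-sided permutation test, p = 0.10).

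BMP ligands had low coverage, and their sum, *Gdf15* included, overlapped between the lines. *Bmp7* was the most abundant, with a normalized coverage of 16, 12.8 and 13.2 in the KSFM-Ca2+ libraries and 10.6, 11.8 and 11.4 in the DKSFM libraries. Its KSFM-Ca2+ libraries were all above the DKSFM libraries, yet the difference did not pass the threshold (log2 change of -0.30 with a standard error of 0.09, limma adjusted p = 0.0168). With quantile normalization *Bmp7* did pass (log2 change of -0.39, limma adjusted p = 0.00364). *Bmp4* had 0.689, 0.787 and 0.824 in the KSFM-Ca2+ libraries and 2.44, 2.30 and 2.76 in the DKSFM libraries. Every DKSFM library of *Bmp4* was higher, from a low start (log2 change of 1.58 with a standard error of 0.15, limma adjusted p = 1.69e-05), and the fitted change was 0.99 with a pseudocount of 1. *Bmp6* had a mean of 5.71 in the KSFM-Ca2+ libraries and 7.32 in the DKSFM libraries (log2 change of 0.35, limma adjusted p = 0.00582), and this call was lost when any library but DKSFM replicate 1 was left out, with a limma adjusted p of 0.0122 to 0.0204, and also with quantile normalization (0.0489) and with the libraries marked as combined only (0.0219). Less its window median the change of *Bmp6* was 0.58. *Bmp2* was listed at 0 in all libraries. The share of *Bmp7* in the coverage of the 4 genes was 68.2 ± 2.73% in the KSFM-Ca2+ cells and 53.5 ± 2.27% in the DKSFM cells, while that of *Bmp4* was 3.78 ± 0.632% and 11.8 ± 0.816% (SD, n = 3; exact permutation tests, p = 0.10 each). *Gdf15*, a distant member of the family known as a stress-induced cytokine, was listed at 1.1, 1.6 and 1.3 in the KSFM-Ca2+ libraries, while the DKSFM libraries were at 0.4, 0.2 and 0.2. The lines did not overlap (log2 change of -1.90 with a standard error of 0.32, limma adjusted p = 7.10e-04), although at this coverage the fitted change was -0.84 with a pseudocount of 1.

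Latent TGF-beta binding proteins tether the inactive ligand to the extracellular matrix. The most abundant, *Ltbp1* (chromosome 17 from 75005568 to 75392512), stood at a normalized coverage of 74.4, 72.0 and 76.3 in the KSFM-Ca2+ libraries and 179, 173 and 183 in the DKSFM libraries. Its rise (log2 change of 1.26 with a standard error of 0.04, limma adjusted p = 1.96e-08) was opposite in direction to the fall of *Tgfb1*, and its per-base coverage was above that of *Tgfb1* in every library of both lines. The window median on its part of chromosome 17 was 0.27, and less this value the change of *Ltbp1* was 0.99. *Ltbp4* had a mean of 46.5 in the KSFM-Ca2+ cells and 36.0 in the DKSFM cells (log2 change of -0.37, limma adjusted p = 2.71e-04), or -0.94 less its window median. *Ltbp3*, at 10.4 and 11.8, did not pass the threshold (limma adjusted p = 0.0605). *Ltbp2* was not tested, being listed at 0.1, 0 and 0 in the KSFM-Ca2+ libraries, while the DKSFM libraries were at 0.2, 0.2 and 0.3.

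**Figure D3:**
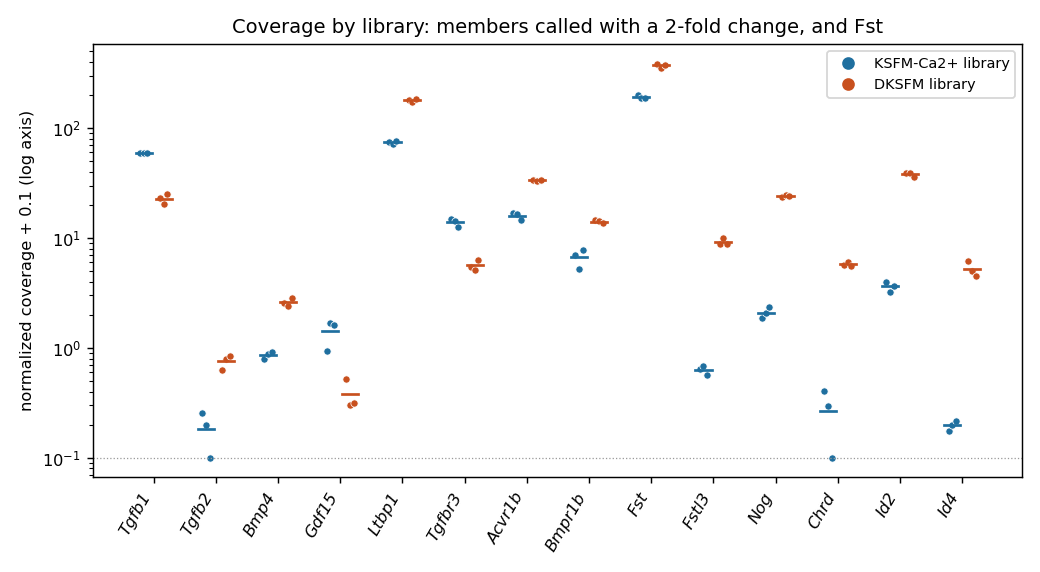
Normalized coverage + 0.1 (log axis) of the 13 genes called with a 2-fold change, and of *Fst*, in each library, where points are single libraries, short bars the means of 3 libraries, and the dotted line is a coverage of 0. The libraries of the lines do not overlap for any gene shown.

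All 10 receptor genes were expressed in both lines and passed the filter. The type II receptor gene *Tgfbr2* was the most abundant of the receptors, with a normalized coverage of 142, 139.6 and 146 in the KSFM-Ca2+ libraries and 188, 182 and 192 in the DKSFM libraries. It was raised by less than 2-fold in each DKSFM library (log2 change of 0.39 with a standard error of 0.03, limma adjusted p = 8.99e-06). The type I receptor gene *Tgfbr1* went the other way, from a mean of 102 in the KSFM-Ca2+ cells to 72.6 in the DKSFM cells (log2 change of -0.48, limma adjusted p = 1.44e-04). *Tgfbr3* encodes betaglycan, a co-receptor that presents ligand to the type II receptor, and had 14.7, 14.1 and 12.6 in the KSFM-Ca2+ libraries and 5.32, 5.003 and 6.25 in the DKSFM libraries. Its libraries were all lower in the DKSFM cells, by more than 2-fold (log2 change of -1.31 with a standard error of 0.10, limma adjusted p = 5.49e-06).

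Of the activin receptors, the type I gene *Acvr1b* had 16.9, 16.3 and 14.4 in the KSFM-Ca2+ libraries and 33.7, 32.6 and 33.6 in the DKSFM libraries. Each DKSFM library was above each KSFM-Ca2+ library, and the change was at the edge of 2-fold (log2 change of 1.07 with a standard error of 0.07, limma adjusted p = 1.42e-06; 95% confidence interval 0.92 to 1.22). The type II genes were lower in coverage. *Acvr2a* had a mean of 5.42 in the KSFM-Ca2+ cells and 7.20 in the DKSFM cells (log2 change of 0.40, limma adjusted p = 0.00330), and the call was lost without KSFM-Ca2+ replicate 2 or 3 or DKSFM replicate 2 or 3, with a limma adjusted p of 0.0115 to 0.0149, and also with quantile normalization (0.0258) and with the libraries marked as combined only (0.0172). *Acvr2b*, with means of 2.20 and 1.94, did not pass (limma adjusted p = 0.218).

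Among the BMP receptors *Acvr1*, which encodes the type I receptor ALK2, was the most abundant, with 75.8, 71.6 and 73.6 in the KSFM-Ca2+ libraries and 87.3, 85.4 and 90.0 in the DKSFM libraries. The lines did not overlap, and the difference was small (log2 change of 0.25 with a standard error of 0.04, limma adjusted p = 2.64e-04), at 0.14 less its window median. *Bmpr1b*, another type I receptor, had 6.97, 5.12 and 7.65 in the KSFM-Ca2+ libraries and 14.4, 14.1 and 13.6 in the DKSFM libraries. It was higher in every DKSFM library (log2 change of 1.10 with a standard error of 0.14, limma adjusted p = 1.05e-04), and its log2 fold change without KSFM-Ca2+ replicate 2, the lowest library, was 0.93, which is under 2-fold. *Bmpr1a* had means of 37.2 in the KSFM-Ca2+ cells and 45.5 in the DKSFM cells (log2 change of 0.29, limma adjusted p = 0.00255), and without DKSFM replicate 2 its limma adjusted p was 0.0146. The type II gene *Bmpr2* had 11.5 and 11.9 and did not pass (limma adjusted p = 0.477). Its log2 change was 0.05, or 0.57 less its window median.

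The 4 secreted antagonists tested were all higher in the DKSFM cells, as 35.6% of all genes tested were, and *Chrd*, which passed the filter through the DKSFM libraries alone, had to be. *Fst* encodes follistatin, which binds activin and blocks its access to receptors, and was the most abundant of the 44 genes, with a normalized coverage of 198, 187 and 188 in the KSFM-Ca2+ libraries and 385, 355 and 376 in the DKSFM libraries. Its rise stayed just under 2-fold (log2 change of 0.96 with a standard error of 0.04, limma adjusted p = 1.36e-07; 95% confidence interval 0.87 to 1.05). Set against *Inhba* in the same library, the log2 ratio of *Fst* to *Inhba* was 3.68 ± 0.11 in the KSFM-Ca2+ cells and 5.38 ± 0.07 in the DKSFM cells (SD, n = 3; exact two-sided permutation test, p = 0.10). *Fst* was not set against *Inhbb*, the more abundant subunit gene on the per-base scale. That gene rose nearly as much as *Fst* (log2 changes of 0.89 and 0.96). *Fstl3*, a relative of follistatin that also binds activin, had 0.536, 0.590 and 0.471 in the KSFM-Ca2+ libraries and 8.72, 9.91 and 8.80 in the DKSFM libraries. All DKSFM libraries were more than 10 times higher than any KSFM-Ca2+ library (log2 change of 3.87 with a standard error of 0.12, limma adjusted p = 4.04e-08). Its KSFM-Ca2+ libraries were listed at 0.7, 0.6 and 0.4, so that the fitted change was 2.72 with a pseudocount of 1 and the gene was left out where 0.5 was asked of every library. *Fstl1* was listed at 0 in every library.

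BMP antagonists bind BMP ligands outside the cell. *Nog*, which encodes noggin, had a normalized coverage of 1.76, 1.97 and 2.24 in the KSFM-Ca2+ libraries and 23.5, 24.5 and 23.95 in the DKSFM libraries. The rise was of similar size in each DKSFM library (log2 change of 3.53 with a standard error of 0.09, limma adjusted p = 1.50e-08). *Chrd*, which encodes chordin, was listed at 0.4, 0.2 and 0 in the KSFM-Ca2+ libraries, while the DKSFM libraries were at 5.3, 6 and 5.1. The lines were far apart (log2 change of 4.65 with a standard error of 0.46, limma adjusted p = 2.64e-05), with the fitted size set in part by the pseudocount, since it was 2.52 with a pseudocount of 1. *Grem1* was listed at 0 in every library. The summed coverage of *Nog*, *Chrd* and *Grem1* was 2.07, 2.17 and 2.24 in the KSFM-Ca2+ libraries and 29.1, 30.5 and 29.4 in the DKSFM libraries, whereas that of the BMP and GDF ligands was 23.4, 21.1 and 20.96 and 20.4, 21.3 and 22.5. On the per-base scale this antagonist sum was thus below the ligand sum in each KSFM-Ca2+ library and above it in each DKSFM library. The comparison was made after the values were seen and holds for these antagonists only. Outside the sum were *Twsg1* (means of 39.7 in the KSFM-Ca2+ and 55.4 in the DKSFM cells), *Crim1* (18.2 and 33.7) and *Dand5* (6.74 and 5.63), of the further antagonists looked up below. *Twsg1* alone was above the ligand sum in every library of both lines, and the ligand sum includes *Gdf15*. *Bambi*, a receptor-like protein without a kinase domain, was listed at 0.1 in all 6 libraries and was not tested.

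Promoter sequences are shown for 4 genes, chosen after their values were seen. *Id4*, *Chrd* and *Fstl3* had the largest rises among the genes with a window that holds at most 2 bases of annotated exons, and *Tgfb1* was the most abundant of the genes that fell by 2-fold. The sequences are from RefSeq (GRCm38.p6), whose table matched 32 of the 44 genes by symbol. The 12 without an entry were *Tgfb3*, *Bambi*, *Id1*, *Tgfbr3*, *Smad2*, *Nog*, *Bmp2*, *Skil*, *Fst*, *Smad4*, *Bmp7* and *Smad7*. Each window is the 250 bases before the RefSeq start, and a pair of motifs was searched on both strands. Distances are counted from this start. For *Id4* it lies upstream of 48261228, the start given below from GENCODE. The element GGCGCC, known from BMP target genes and rich in G and C, was in 9.6% of all 32851 windows of this length. The SMAD-binding element CAGAC, read as GTCTG on the other strand, was in 42.2%. The 32 matched genes had 41 windows, of which 11 held GGCGCC and 18 held CAGAC, and some of these windows overlap. The following windows are written 5′ to 3′ on the strand of the gene, with matches in capitals. *Chrd* (chr16:20732877-20733126, plus strand) held GGCGCC once, 203 bases before the start, *Fstl3* (chr10:79777024-79777273, plus strand) held GTCTG at 161 and 14 bases, *Id4* (chr13:48260866-48261115, plus strand), a target gene described below, held GGCGCC at 148 bases, and *Tgfb1* (chr7:25686752-25687001, plus strand), which fell, held neither. A match is a description of the letters and not a binding site.
Chrd: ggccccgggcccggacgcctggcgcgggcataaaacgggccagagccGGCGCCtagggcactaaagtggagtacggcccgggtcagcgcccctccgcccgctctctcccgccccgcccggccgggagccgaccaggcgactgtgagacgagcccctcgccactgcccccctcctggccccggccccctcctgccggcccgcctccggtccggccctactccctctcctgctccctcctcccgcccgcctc
Fstl3: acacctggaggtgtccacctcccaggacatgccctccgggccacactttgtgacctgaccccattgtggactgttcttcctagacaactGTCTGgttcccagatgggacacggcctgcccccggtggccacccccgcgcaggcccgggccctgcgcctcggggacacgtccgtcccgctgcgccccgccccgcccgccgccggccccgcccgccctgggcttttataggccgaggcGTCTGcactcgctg
Id4: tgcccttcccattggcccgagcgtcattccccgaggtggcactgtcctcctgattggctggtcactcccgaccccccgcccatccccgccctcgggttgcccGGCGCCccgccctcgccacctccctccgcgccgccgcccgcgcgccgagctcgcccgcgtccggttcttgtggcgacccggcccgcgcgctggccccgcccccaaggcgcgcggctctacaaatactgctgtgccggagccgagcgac
Tgfb1: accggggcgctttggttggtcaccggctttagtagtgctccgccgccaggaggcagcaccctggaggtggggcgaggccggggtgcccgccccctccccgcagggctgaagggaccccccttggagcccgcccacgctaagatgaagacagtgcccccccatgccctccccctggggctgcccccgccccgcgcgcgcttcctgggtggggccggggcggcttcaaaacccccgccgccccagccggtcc

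Of the 8 SMAD genes 7 were tested, of which 3 were higher in the DKSFM cells, 2 were lower and 2 did not pass, each by less than 2-fold, where 35.6% of all genes tested were higher and 36.8% lower at any size. *Smad2*, which carries TGF-beta and activin signals, had a normalized coverage of 80.7, 81.6 and 81.6 in the KSFM-Ca2+ libraries and 50.1, 52.8 and 54.6 in the DKSFM libraries. It was lower in every DKSFM library (log2 change of -0.63 with a standard error of 0.04, limma adjusted p = 1.49e-06). *Smad3*, of the same branch, had means of 14.3 in the KSFM-Ca2+ cells and 15.5 in the DKSFM cells and did not pass (limma adjusted p = 0.0733). *Smad5*, which carries BMP signals, had 44.9, 40.9 and 42.6 in the KSFM-Ca2+ libraries and 57.1, 58.9 and 59.2 in the DKSFM libraries. It was higher in every DKSFM library (log2 change of 0.45 with a standard error of 0.04, limma adjusted p = 2.29e-05). *Smad1*, also of the BMP branch, had means of 20.9 and 24.1 (log2 change of 0.20, limma adjusted p = 0.00300), a call lost when KSFM-Ca2+ replicate 1 or 2 or DKSFM replicate 2 or 3 was left out, with a limma adjusted p of 0.0103 to 0.0124, as well as under quantile normalization (0.0146) and with the libraries marked as combined only (0.0408). Less its window median its change was 0.42. *Smad9* was listed at 0 in every library. In the coverage summed over these 5 genes, the share of *Smad2* was 51.0 ± 0.729% in the KSFM-Ca2+ cells and 34.9 ± 0.528% in the DKSFM cells, and that of *Smad5* was 26.9 ± 1.05% and 38.8 ± 0.379% (SD, n = 3; exact permutation tests, p = 0.10 each).

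*Smad4*, the partner shared by both branches, was the most abundant SMAD gene, with 108, 109 and 106 in the KSFM-Ca2+ libraries and 114, 119 and 121 in the DKSFM libraries. The libraries did not overlap, but the difference was small (log2 change of 0.13 with a standard error of 0.03, limma adjusted p = 0.00496) and lost its call when any library but DKSFM replicate 1 was left out, with a limma adjusted p of 0.0133 to 0.0201, and with the libraries marked as combined only (0.0316). Of the inhibitory SMADs, which are induced by the pathway and restrain it, *Smad7* was the more abundant, with 3.29, 3.44 and 3.30 in the KSFM-Ca2+ libraries and 2.13, 2.40 and 2.44 in the DKSFM libraries. It was lower in every DKSFM library (log2 change of -0.51 with a standard error of 0.10, limma adjusted p = 0.00210), and the call was lost without KSFM-Ca2+ replicate 2 and with the combined libraries only (limma adjusted p = 0.0111 and 0.0440). *Smad6* had means of 1.17 and 1.01 with overlapping libraries (limma adjusted p = 0.394). *Smad2*, *Smad4* and *Smad7* lie in the same 20 Mb window of chromosome 18, whose 90 tested genes had a median log2 fold change of -0.38. Less this median, the log2 fold change was -0.25 for *Smad2*, -0.13 for *Smad7* and 0.51 for *Smad4*. The part of this shift along the chromosome in the fall of *Smad2* and *Smad7* was not tested.

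**Figure D4:**
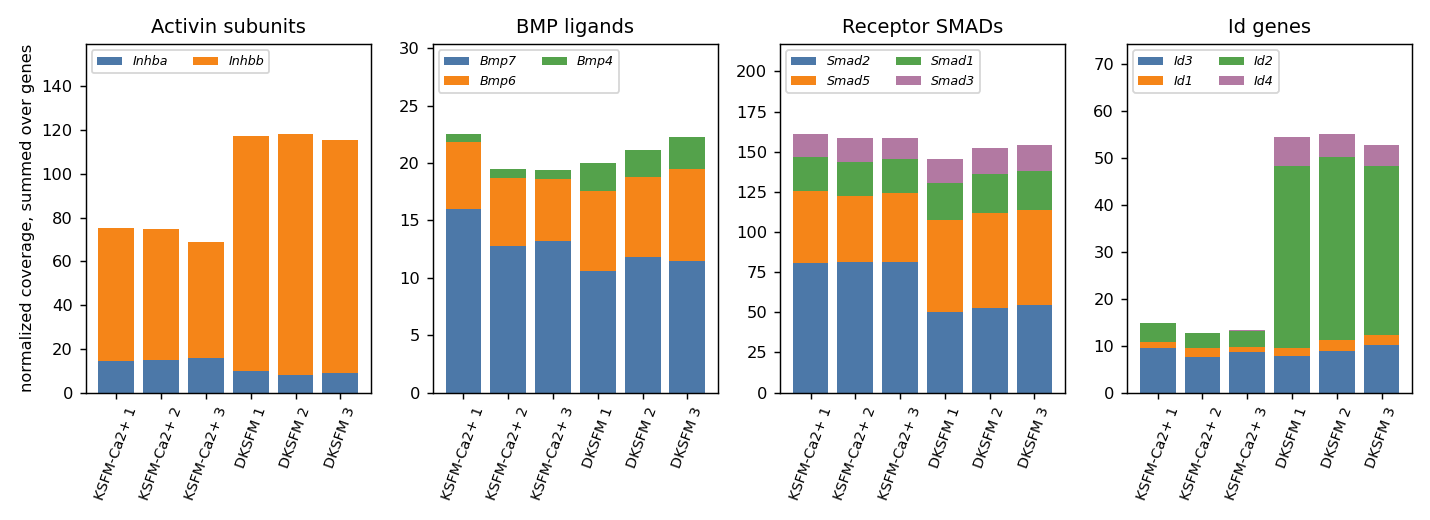
Normalized coverage of the genes of 4 roles, stacked by gene, in each of the 6 libraries. In the Id panel *Id2* and *Id4* fill most of the DKSFM bars and a smaller part of the KSFM-Ca2+ bars, in the SMAD panel the bar of *Smad2* is shorter and that of *Smad5* taller in the DKSFM libraries, and the BMP ligand bars are of similar height in both lines.

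The Id genes encode helix-loop-helix proteins without a DNA-binding region and are classic BMP targets, yet they did not move as a group. *Id2* (chromosome 12 from 25093799 to 25097140) stood at a normalized coverage of 3.91, 3.15 and 3.53 in the KSFM-Ca2+ libraries and 38.8, 39.0 and 36.0 in the DKSFM libraries. Every DKSFM library was more than 9 times above the highest KSFM-Ca2+ library (log2 change of 3.39 with a standard error of 0.09, limma adjusted p = 1.16e-08). *Id4* (chromosome 13 from 48261228 to 48266026), whose promoter window is shown above, was listed at 0.1, 0.1 and 0.1 in the KSFM-Ca2+ libraries against 5.7, 4.9 and 4.2 in the DKSFM libraries. At the median length of its annotated transcripts each 0.1 stood for roughly 4.53 reads. The KSFM-Ca2+ libraries were all at the rounding step, so the fitted change (log2 change of 4.72 with a standard error of 0.19, limma adjusted p = 1.25e-07) depends on the pseudocount and was 2.48 with a pseudocount of 1. *Id3*, the most abundant Id gene of the KSFM-Ca2+ cells, had 9.49, 7.68 and 8.59 in the KSFM-Ca2+ libraries and 7.87, 8.91 and 10.1 in the DKSFM libraries. These libraries overlapped, the sign of the difference turned with quantile normalization, and the threshold was not passed (log2 change of 0.06 with a standard error of 0.11, limma adjusted p = 0.655; 95% confidence interval -0.20 to 0.32). *Id1* had 1.38, 1.77 and 1.06 in the KSFM-Ca2+ libraries and 1.70, 2.20 and 2.12 in the DKSFM libraries. It did not pass either (log2 change of 0.51 with a standard error of 0.20, limma adjusted p = 0.0460), and its libraries overlapped. *Id2* accounted for 25.9 ± 0.940% of the summed coverage of the 4 genes in the KSFM-Ca2+ cells and 70.2 ± 1.56% in the DKSFM cells (SD, n = 3; exact two-sided permutation test, p = 0.10). *Skil*, which encodes the SMAD co-repressor SnoN and is induced by TGF-beta, had 38.7, 40.0 and 34.7 in the KSFM-Ca2+ libraries and 23.9, 27.2 and 26.4 in the DKSFM libraries. It was lower in every DKSFM library, by less than 2-fold (log2 change of -0.55 with a standard error of 0.07, limma adjusted p = 1.18e-04), and by -0.32 less its window median.

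A further 103 genes of the pathways were looked up in 6 lists, and 56 of them passed the filter. With limma at an adjusted p under 0.01 and a 2-fold change, 15 were higher in the DKSFM cells and 5 were lower, where 13.3% and 10.5% of all genes tested were. The median log2 fold change of the 56 was 0.20, against 0.00 over all genes. These counts too are a description, since the lists were chosen with earlier results of these data known. The counts of the single lists are also small. Of the 15 higher genes 6 had to differ, as they passed the filter through the DKSFM libraries alone (*Tll1*, *Itgb8*, *Vasn*, *Nbl1*, *Sostdc1* and *Dlx3*). With 0.5 asked of every library 8 of 49 were higher by 2-fold (16.3%, against 9.3% of all 11124 genes left) and 5 lower (10.2%, against 8.58%). Among 16 other extracellular antagonists 6 were tested, 3 of them higher by 2-fold and none lower. The filter set the direction of *Nbl1* and *Sostdc1*, though not the size of their change. *Nbl1*, which encodes a BMP antagonist of the DAN family, was listed at 0.4, 0.1 and 0.4 in the KSFM-Ca2+ libraries and had a normalized coverage of 62.4, 67.8 and 64.3 in the DKSFM libraries (log2 change of 7.50 with a standard error of 0.33, limma adjusted p = 2.10e-07), a size that was 5.68 with a pseudocount of 1. *Sostdc1*, which encodes an antagonist of BMP and Wnt ligands, was listed at 0 in every KSFM-Ca2+ library and at 9.8, 11.6 and 10.2 in the DKSFM libraries, so that no fold is given. *Wfikkn1* was listed at 0.5, 0.4 and 0.5 in the KSFM-Ca2+ libraries against 1.3, 1.3 and 1.1 in the DKSFM libraries (log2 change of 1.33, limma adjusted p = 4.28e-04), and its change was under 2-fold with quantile normalization (0.95) and with a pseudocount of 0.5 or 1 (0.91 and 0.65). With the combined libraries only it did not pass (limma adjusted p = 0.0134). The lines did not overlap in any of the 3 genes, and *Nbl1* reached a higher coverage in the DKSFM cells than *Nog*, *Chrd* and *Fstl3*. In the list of 10 other receptors and co-receptors, of which 5 were tested, *Rgma*, a BMP co-receptor, had 1.53, 1.48 and 1.18 in the KSFM-Ca2+ libraries and 61.5, 57.5 and 63.5 in the DKSFM libraries (log2 change of 5.36 with a standard error of 0.10, limma adjusted p = 2.91e-09; 4.69 with a pseudocount of 1). *Acvrl1*, a type I receptor best known from endothelium, had 4.44, 5.90 and 8.71 in the KSFM-Ca2+ libraries against 2.55, 2.50 and 1.38 in the DKSFM libraries (log2 change of -1.52 with a standard error of 0.29, limma adjusted p = 0.00146). The former rose in every DKSFM library, and the latter was lower in every one.

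Of 11 genes for ligand release and storage, 7 were tested, 2 of them higher (*Tll1* and *Itgb8*, both of necessity) and 1 lower by 2-fold, where 13.3% and 10.5% of all genes were. *Itgb6* encodes the partner of the alpha v integrin that frees TGF-beta from its latent form, and had 78.9, 73.8 and 83.2 in the KSFM-Ca2+ libraries and 21.4, 19.2 and 21.7 in the DKSFM libraries (log2 change of -1.92 with a standard error of 0.06, limma adjusted p = 4.40e-08). *Tll1*, for a protease that cleaves chordin, had 0.383, 0.295 and 0.235 in the KSFM-Ca2+ libraries against 2.02, 1.80 and 2.01 in the DKSFM libraries (log2 change of 2.35 with a standard error of 0.20, limma adjusted p = 9.65e-06), a change of 1.18 with a pseudocount of 1. Of 23 other ligands only 3 were tested, and 15 were listed at 0 in every library. *Inha*, the inhibin alpha subunit, had means of 3.12 in the KSFM-Ca2+ cells and 6.54 in the DKSFM cells (log2 change of 1.04, limma adjusted p = 5.61e-05), and *Gdf11* had means of 2.62 and 1.08 (log2 change of -1.21, limma adjusted p = 4.05e-05). Both were near the 2-fold limit. *Inha* was under it without KSFM-Ca2+ replicate 3 (0.98) or DKSFM replicate 2 or 3 (0.99 each), with quantile normalization (0.87) and with a pseudocount of 0.5 or 1 (0.96 and 0.87), and *Gdf11* was with these pseudocounts (-0.98 and -0.80). Among 22 intracellular regulators 20 were tested, 3 were higher by 2-fold and none was lower, close to the 13.3% of all genes for the higher ones. These 3 were *Zeb2*, a SMAD-binding repressor, with means of 0.827 and 6.17 (log2 fold change 2.83, or 1.99 with a pseudocount of 1), *Nedd4l*, a ubiquitin ligase for activated SMAD2 and SMAD3, with 9.64 and 28.2 (1.54 on the same scale), and the co-repressor gene *Ski*, with 32.7 and 66.6 (1.03, and 0.92 less the median of its 20 Mb window).

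The 21 other target genes, of which 15 were tested, were divided in direction, with 4 higher (*Dlx3* of necessity) and 2 lower by 2-fold, where 13.3% and 10.5% of all genes were, and the values of 1 of them are not reported here. *Tgfbi*, an adhesion protein named for its induction by TGF-beta, had a normalized coverage of 31.9, 28.4 and 26.3 in the KSFM-Ca2+ libraries and 407, 367 and 400.0 in the DKSFM libraries (log2 change of 3.76 with a standard error of 0.07, limma adjusted p = 2.95e-09). It was higher in every DKSFM library, with no overlap between the lines. *Fn1*, which encodes fibronectin, rose from a mean of 7.55 in the KSFM-Ca2+ cells to 32.8 in the DKSFM cells (log2 change of 2.11, limma adjusted p = 6.48e-08). Of the homeobox genes known as BMP targets, *Msx1* had means of 8.82 and 3.26 (log2 change of -1.42, limma adjusted p = 4.18e-06) and *Dlx3* was listed at 0, 0.1 and 0.1 in the KSFM-Ca2+ libraries against 1, 1.1 and 1.1 in the DKSFM libraries (log2 change of 2.89, limma adjusted p = 7.58e-05, and 0.98 with a pseudocount of 1). A further 3 genes of the 6 lists called with a 2-fold change are named after their values were seen. They were *Snai2*, a target gene for a repressor of epithelial genes, with means of 66.2 and 136, *Itgb8*, of ligand release, at 0 in every KSFM-Ca2+ library against a listed 0.7, 1 and 0.8, and *Vasn*, which encodes a TGF-beta-binding protein, whose locus overlaps *Dnaja3*, at 0 against a listed 0.7, 1.3 and 0.6, all higher in the DKSFM cells.

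**Figure D5:**
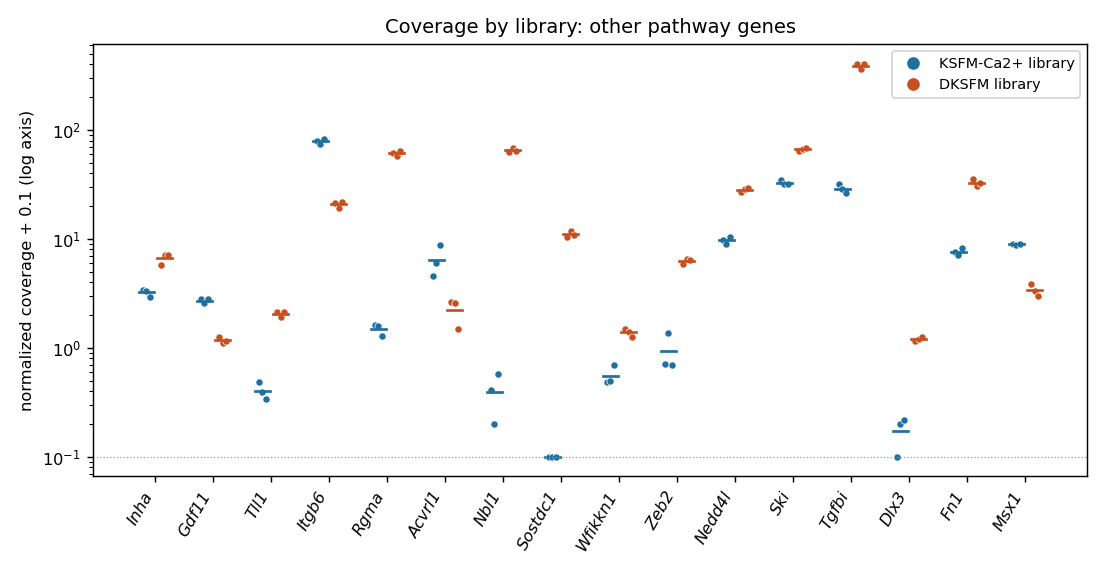
Normalized coverage + 0.1 (log axis) of 16 further pathway genes in each library, with points for libraries, short bars for means of 3 libraries and a dotted line at a coverage of 0. *Nbl1*, *Rgma*, *Sostdc1* and *Tgfbi* are higher in the DKSFM libraries and *Itgb6* lower, with no overlap between the lines.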

How the data were processed

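Poly(A) RNA of the 6 samples was made into strand-specific libraries by the authors, read once over 85 bases and mapped with STAR to mm10. The authors also ran Salmon and DESeq2, which were not used here. They deposited a signal, the coverage per base of each of 24982 genes to 1 decimal, with no scaling between libraries. How it was computed, and the word "combined" in the file names of KSFM-Ca2+ replicate 3 and the DKSFM replicates, are not explained. Coverage is not a count, so no count model was fitted. Scaling used a trimmed mean of M values without weights (30% and 5% trimmed, factors 0.991 to 1.01). After the filter (2 libraries needed where one was left out), log2(value + 0.1) was fitted with limma 3.58.1 in R 4.3.3 with an intensity trend, without covariates and with Benjamini-Hochberg adjustment over 12450 genes. Thresholds were an adjusted p of 0.01 and 2-fold. Values by library are given for each member called with 2-fold, the most abundant of each role and *Fst*, and the further genes named are, for each list and direction, up to 3 with the largest called change and a mean of at least 1, of which 1 is not reported. Values by library of *Inhba*, *Id1* and *Id3*, and the choice of promoters, were added after the values were seen. So were the means of *Twsg1*, *Crim1* and *Dand5* and the names of the target genes called under 2-fold. Members and lists were chosen with earlier results of these data known. Replicates differed by 1.91 to 4.16 times the sampling variance of reads approximated from coverage, transcript length and read length, and none was a copy of another. GENCODE M21 gave positions for 24490 genes. The procedure was also run on simulated data, whose outcome is not given and on which no result here rests. Alternatives were other scalings, filters and pseudocounts, no trend, treat, blocking by replicate, a looser adjusted p of 0.05, left-out libraries, the combined libraries only and subtraction of the median of the 20 Mb window. Python 3.11.15 and matplotlib 3.10.9 drew the figures.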

Additional observations from a re-analysis of the deposited data

How the results depend on the processing

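Of 695 values for the 37 genes tested, under 19 alternatives, 631 kept their direction and their side of the adjusted p threshold, 54 kept the direction but no longer passed, 3 passed only under the alternative and 7 changed sign. A looser adjusted p could only add calls and subtraction of the window median keeps the p of the first test, and without these 2 alternatives 561 of 621 values kept both, 54 no longer passed, 1 passed newly and 5 changed sign. The changes of sign were in *Bmpr2* (-0.0411 with quantile normalization), *Smad6* (0.0687 with the libraries marked as combined only and 0.045 less the window median) and *Id3* (-0.0438 with quantile normalization, -0.0681 less the window median, and -0.0314 to 0.15 with a library left out, negative without KSFM-Ca2+ replicate 2 or DKSFM replicate 3). None of the 3 passed the threshold in the main test, and the cause was not tested. With a coverage of 0.5 asked of every library, 1035 of 11124 genes were higher by 2-fold and 954 lower, with 6 and 2 of 32 members and 8 and 5 of 49 other pathway genes. Testing against a 2-fold change with treat, which is stricter by construction, gave 1070 genes higher and 781 lower, of the 44 genes 6 higher and 1 lower (also at any size), and of the other pathway genes 11 higher and 2 lower. The 13 genes of the 44 called with 2-fold were all called again with the other size factors, library totals, no trend and an adjusted p of 0.05. *Tgfb2* was under 2-fold with a pseudocount of 0.5, and *Tgfb2*, *Bmp4* and *Gdf15* were with a pseudocount of 1. *Tgfb2* missed the filter with quantile normalization, where *Fst* reached 2-fold, and with no filter *Ltbp2* was called. Less the window median *Ltbp1*, *Acvr1b* and *Bmpr1b* were under 2-fold while *Inhbb* and *Fst* were over it. With the libraries marked as combined only, KSFM-Ca2+ replicate 3 was a lone sample assumed to vary like the others, *Tgfb2* and *Gdf15* missed the filter, *Bmpr1b* was under 2-fold and *Inhbb* over it. *Smad4* did not pass with library totals or no trend, nor *Bmp6* and *Smad4* with the replicate block, nor *Acvr2a*, *Bmp6* and *Smad1* with quantile normalization, nor these 3, *Smad4* and *Smad7* with the combined libraries only. With the replicate block 10 of the 44 were higher and 3 lower by 2-fold, and over all genes 1658 and 1301. The replicate numbers did not pair the libraries (correlations of same-numbered deviations -0.01, 0.02 and -0.02). The 8 shares and ratios moved by less than the larger of the SDs of the lines, though some by more than the smaller one, under each alternative run on them (a library left out, a pseudocount of 0.1). Low coverage limits *Tgfb2*, *Gdf15*, *Chrd*, *Id4* and *Fstl3*, and of the other pathway genes *Nbl1*, *Sostdc1*, *Tll1*, *Itgb8*, *Vasn*, *Dlx3*, *Wfikkn1* and *Zeb2*.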
